A study of Mus musculus with 12 samples.

Results

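Motile cilia genes were examined in mouse ovaries as a set of 32 named genes: transcription factors that switch on the ciliary programme, and components of the beating axoneme such as dynein arms, radial spokes, the central apparatus and tektins. The genes were taken by symbol, with no threshold on a measured value, although earlier results of these data were known when the set was named. All 32 genes had a probe on the array, 25 under the symbol used here and 7 under an older name that was resolved through RefSeq. Of these, 28 passed the filter on dim probes (signal well above background in 4 or more of the 12 samples) and were tested among 19054 genes and transcripts in all. Rfx3 (2 samples above background), Dnah1 (3 samples), Spag17 and Tekt3 (0 samples each) did not pass and were not tested. The probe of the gene listed as Spag6 measures the gene that RefSeq now calls Spag6l.

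A motile cilium beats because dynein arms slide the outer microtubule doublets of the axoneme against each other. Radial spokes and the central apparatus coordinate the arms, molecular rulers set their spacing, and tektins form filaments inside the doublets. Foxj1 is the transcription factor that defines cells with motile cilia, and the RFX factors bind promoters of many ciliary genes. In the female reproductive tract such cells are known for the oviduct, where they lie among secretory cells.

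The study compared 3 diet groups of 4 female mice each, of the inbred strain C57BL/6J, and took the ovaries at 2 months of age. Control mice (C1 to C4) ate a normal diet. The other groups lacked dietary vitamin D (VD) during early life only (E1 to E4) or during the peripubertal stage only (P1 to P4), and no genetic change or further treatment is named. Whole ovaries were minced and their RNA was hybridised to 2-colour Agilent arrays, odd replicates in Cy3 and even replicates in Cy5. How closely oviduct, bursa and fat were trimmed from the ovary is not given in the sources used here. As a check of the tissue label, all 9 oocyte genes and all 8 granulosa genes listed for this purpose passed the filter. Per sample, the median signal was 147 to 331 units of intensity, the ratio to local background was 6.96 to 9.62, and between 59.3% and 65.5% of spots stood well above background. Precision is limited by how few arrays there are. All values below are log2 normalized intensities of a gene's brightest probe, on which a difference of 1 is a 2-fold change, and levels are compared only within a gene.

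The 6 arrays paired mice of the same group. Slide 1 held the arrays of the control and early-life groups and slide 2 those of the peripubertal group, and the peripubertal diet cannot be told apart from the slide. Names of groups are taken from the scanner files. The deposited value table names them otherwise: its 8 columns for control and early life each matched a channel that the scanner files give to the opposite group (r of at least 0.99977 across features), and its 4 peripubertal columns matched no channel closely (best r 0.87365 to 0.89669). It is not settled which naming is right, so the sign of each early-life difference from control is not settled either. If the names are exchanged, what is given below for peripubertal against control belongs to peripubertal against early life, and the reverse. Comparisons between the 2 mice on one array do not depend on the group name.

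The promoters of the set carry recognisable RFX-type letters, which are shown here because the regulators and the genes of the axoneme are described together below. The RefSeq promoter table (GRCm38.p6, 250 bases before to 50 after each start) held 28 of the 32 genes, without Foxj1, Rsph1, Rsph4a and Tppp3. An RFX site joins a pair of short motifs facing each other, and 6 spellings of RFX and forkhead motifs were tried on both strands. The choice of spellings to show was made after their matches were seen. The paired form (GTTNCC, 3 bases of any kind, then GNAAC) was found in 4 of the 28 promoters (14.3%) and in 0.936% of all 27025 genes with a promoter. The following windows hold it, with the motif in capitals and written on the strand where it reads forward.
Spag16, chr1:69826859-69826888, plus strand: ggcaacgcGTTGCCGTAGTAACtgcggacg
Hydin, chr8:110266948-110266977, minus strand: taccatctGTTGCCACAGCAACcgcagagt
Tekt4, chr17:25471582-25471611, minus strand: ggttcctgGTTGCCTAAGGAACattgtata
Pifo, chr3:106001496-106001525, plus strand: tgtactacGTTGCCAAGGGAACggaaccgc
The single motif GTTGCC, which overlaps the paired form in these 4 genes, was found in 13 of the 28 promoters (46.4%) and in 14.1% of all genes. It occurred in the promoters of Rfx2 and Rfx3 themselves. The next windows show it in a spoke gene, a linker gene, a tektin, the dynein light chain gene Dynlrb2 and Mlf1, whose values departed from the others.
Lrrc23, chr6:124779749-124779778, minus strand: cgtcccgcccctGTTGCCataacaacaata
Ccdc113, chr8:95534082-95534111, minus strand: accctgaggcgcGTTGCCtagacaactgaa
Tekt1, chr11:72361880-72361909, minus strand: tgcgtccgtccgGTTGCCatagagaccgca
Dynlrb2, chr8:116504952-116504981, plus strand: acttcctgcctgGTTGCCtagcaacggggg
Mlf1, chr3:67373980-67374009, plus strand: gtgtttacagagGTTGCCatagcagccgag
The forkhead core TGTTTA was found in 10 of the 28 promoters (35.7%) and in 15.1% of all genes. In 42 promoters of further motile cilia genes, the shares were 9.52% for the paired form, 54.8% for GTTGCC and 16.7% for TGTTTA. Of the remaining spellings, GTTNCC and GGNAAC set 2 bases apart occurred in 1 of 28 promoters and 0.529% of all genes. GTNNC and AAC set 6 bases apart occurred in 9 of 28 and 11.1%, and GTTGCC and GG set 2 bases apart in 2 of 28 and 2.59%. These matches are letters only, and no binding was measured.

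Foxj1, the regulator, spanned the widest range of the set. Its probe (mm9, chr11:116192214-116192273; exon and UTR are not given, as no annotation of that build was used here) measured 11.85, 8.42, 8.0 and 11.88 in C1 to C4. Early-life samples measured 13.22, 9.61, 12.27 and 13.42, and peripubertal samples 7.09, 9.78, 7.10 and 6.92. The measured values span 6.50 log2 units. The lowest values of Foxj1 and of 12 other members lie under the dimmest signal well above background in their sample, so ranges given for such members have their low end at background. Control samples split into a high pair (C1, C4) and a low pair (C2, C3), E2 lay far below the other early-life samples, and P2 lay far above the other peripubertal samples, so all 3 groups overlapped. In bulk ovary RNA, fewer ciliated cells and less RNA per ciliated cell cannot be told apart.

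Of the RFX factors, Rfx2 varied far less than Foxj1. Rfx2 (mm9, chr17:56915749-56915808) measured 8.94, 8.65, 8.40 and 8.73 in control, 8.97, 8.03, 8.51 and 9.0 in early-life, and 8.03, 7.83, 8.06 and 8.01 in peripubertal samples. Its 4 control values all lay above its 4 peripubertal values, while early-life values overlapped both groups. Rfx3, above background only in 2 early-life samples, measured 6.76, 6.72, 6.75 and 7.01 in control, 6.97, 6.88, 6.92 and 7.23 in early-life, and 6.45, 6.77, 6.56 and 6.71 in peripubertal samples. Most of these Rfx3 values lie at background, so their narrow range cannot be set against that of Foxj1.

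Among the dynein arm genes, Dnali1, an inner arm light intermediate chain, measured 9.56, 7.66, 7.68 and 10.52 in C1 to C4. Its early-life values were 11.34, 8.55, 10.68 and 11.80, and its peripubertal values 7.28, 9.05, 7.06 and 7.29. The order of samples was nearly that of Foxj1, with C2, C3, P1, P3 and P4 low and E1, E3 and E4 high. The heavy chain Dnah5 of the outer arm (probe at mm9, chr15:28401496-28401555) had the widest range of the arm genes, 5.30 log2 units. It measured 8.30, 6.34, 11.38 and 10.91 in control, 11.02, 6.79, 9.84 and 11.33 in early-life, and 6.48, 7.86, 6.07 and 6.50 in peripubertal samples. C3, which was low for Foxj1 and Dnali1, held the highest Dnah5 value of the 12 samples. Dnah6 and Dnah11, also heavy chains, ranged over 4.44 and 3.22 log2 units with E4 highest. Dnah9, an outer arm heavy chain, was above background in all 4 early-life samples and in 0 control and 0 peripubertal samples. Dnah1 was above background in 3 early-life samples only.

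Of the radial spoke genes, Lrrc23 and Rsph1 were highest in E1, E3, E4, C1 and C4, the samples in which Foxj1 was highest. Lrrc23 (mm9, chr6:124719891-124719950), a spoke component, measured 9.29, 6.66, 7.16 and 10.03 in control, 10.94, 7.27, 10.13 and 11.04 in early-life, and 7.20, 8.39, 7.06 and 7.18 in peripubertal samples. Rsph1, of the spoke head, measured 10.59, 9.48, 9.41 and 11.27 in control, 11.86, 9.80, 11.32 and 12.51 in early-life, and 9.15, 9.73, 8.95 and 8.98 in peripubertal samples. For Rsph1 the early-life values all exceeded the peripubertal values, the lowest being E2 with 9.80 against 9.73 in P2. Rsph4a and Rsph9, the other spoke head genes, ranged over 3.28 and 2.63 log2 units.

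In the central apparatus, Hydin (mm9, chr8:113133873-113133932), a giant protein of the central pair, measured 8.22, 6.80, 7.27 and 9.80 in control samples. Its early-life values were 10.84, 7.38, 9.82 and 11.39, and its peripubertal values 7.05, 7.96, 7.24 and 7.08. Spag6 measured 8.74, 6.49, 6.82 and 9.43 in control, 10.23, 6.81, 9.66 and 10.77 in early-life, and 6.73, 7.71, 6.60 and 6.58 in peripubertal samples. For both genes C2 was the lowest sample and E4 the highest. Spag16 ranged over 3.82 log2 units, also from C2 to E4, and Spag17 was not well above background in any sample.

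Ccdc40 and Ccdc39 form the ruler that sets the spacing of arms and spokes. Ccdc40 (mm9, chr11:119126290-119126349) measured 9.03, 7.67, 8.02 and 9.76 in control, 10.83, 8.61, 10.32 and 11.22 in early-life, and 7.33, 8.05, 7.32 and 7.38 in peripubertal samples. Ccdc113, a linker component, measured 9.67, 7.46, 7.52 and 10.17, then 10.95, 8.03, 10.42 and 11.54, and 7.43, 8.39, 6.96 and 7.10 in the same order of groups. Every early-life value of Ccdc40 lay above every peripubertal value, while E2 of Ccdc113 lay below P2. Ccdc39 was not well above background in any peripubertal sample.

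Of the tektins, Tekt1 (mm9, chr11:72158314-72158373) measured 10.57, 8.41, 8.37 and 11.22 in control, 12.37, 9.37, 11.50 and 12.65 in early-life, and 7.86, 9.46, 8.14 and 8.32 in peripubertal samples. Tekt4 measured 10.61, 8.92, 8.97 and 10.73 in control, 11.77, 9.53, 11.26 and 12.18 in early-life, and 8.90, 9.34, 8.73 and 8.65 in peripubertal samples. Both had the high and low control pairs and the low E2 seen for Foxj1. Tekt2 ranged over 2.17 log2 units and was not well above background in any peripubertal sample, and Tekt3 in none of the 12.

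The other members include the calcium-binding protein gene Capsl, which measured 10.70, 7.14, 7.27 and 10.61 in control, 11.79, 7.25, 11.25 and 12.35 in early-life, and 6.77, 8.50, 6.71 and 7.11 in peripubertal samples. Pifo, linked to the ciliary base, measured 8.49, 6.34, 6.98 and 8.94, then 9.64, 6.71, 9.07 and 9.93, and 6.95, 7.56, 6.78 and 6.67. For both, E1, E3, E4, C1 and C4 were the 5 highest samples, as for Foxj1, while the lowest was P3 for Capsl and C2 for Pifo. Tppp3, Dynlrb2 and the adenylate kinase Ak7 ranged over 3.33, 3.53 and 2.03 log2 units, each highest in E4.

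**Figure D1:**
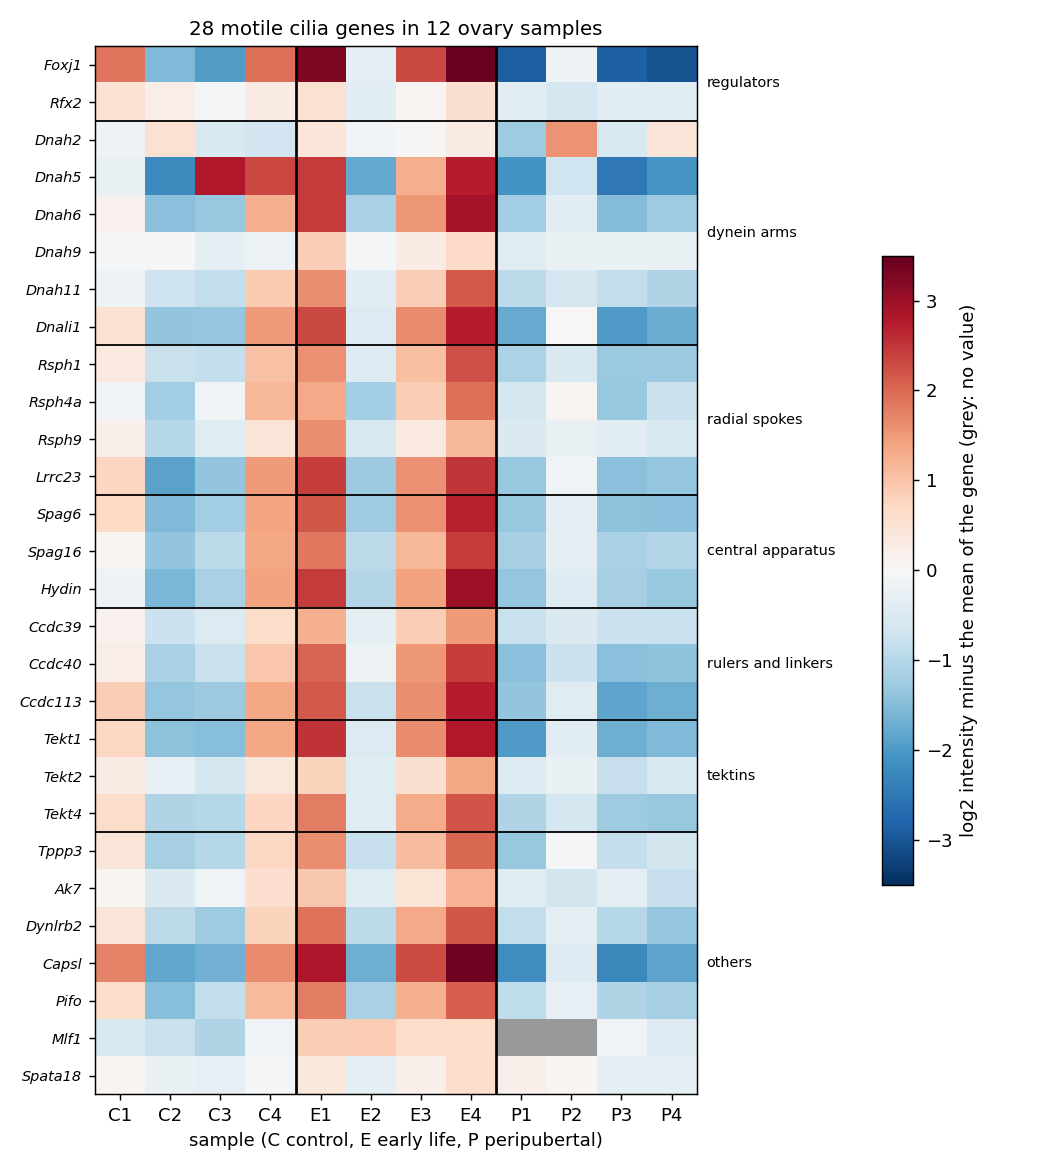
Log2 intensity of each of the 28 tested genes (rows, by part of the cilium) in each sample (columns, C control, E early life, P peripubertal), as the deviation from the mean of the gene; grey marks a missing value. E1, E3 and E4 are high and C2, C3, E2, P1, P3 and P4 low down nearly the whole column, with Dnah2, Dnah5 and Mlf1 as rows that depart.

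Most of the set was high or low together by sample within the control and early-life groups, and in the peripubertal group in P2 against the others. E4 held the highest value of 23 of the 28 genes, and the lowest values lay in P3 (9 genes), C2 (6), P1 (5) and P4 (5). Averaged over the 28 genes, deviations from the gene means were 0.35, -1.03, -0.77 and 0.92 in C1 to C4. They were 1.72, -0.66, 1.1 and 2.03 in E1 to E4, and -1.15, -0.29, -1.17 and -1.11 in P1 to P4. E2 thus lay just above the low control samples C2 and C3, and P2 above the other 3 peripubertal samples. The SD between samples of a group was 0.92 in control, 1.20 in early-life and 0.43 in peripubertal samples. Of the 32 genes listed, 27, 19, 17 and 27 were well above background in C1 to C4, and 24 to 30 in early-life samples. In P1 to P4 the counts were 18, 25, 15 and 15. Values at background cannot fall further, so the smaller peripubertal SD does not show a more even level.

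**Figure D2:**
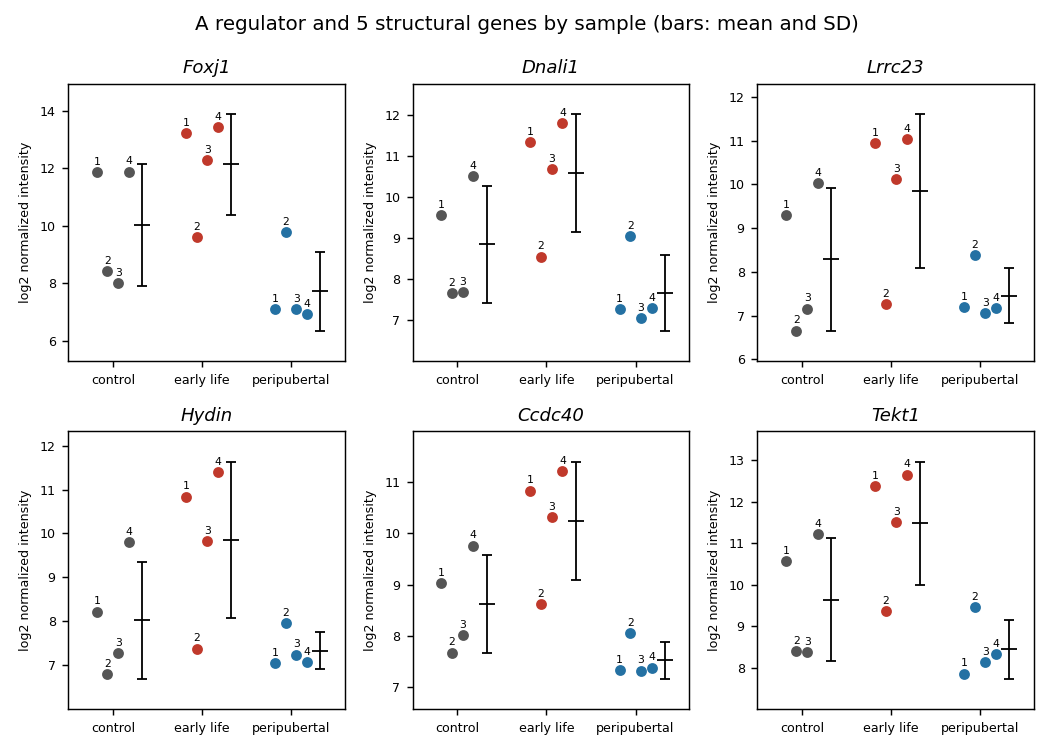
Log2 normalized intensity of Foxj1 and 5 structural genes in each sample (points, with the replicate number) by diet group; the bar at the right of each group is the mean with the SD (n = 4). In all 6 panels control samples 1 and 4 lie above 2 and 3, early-life sample 2 is the lowest of its group, and peripubertal sample 2 the highest of its group.

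The parts of the cilium moved together across samples. Between the 6 parts other than the regulators, the 15 correlations of the part means over 12 samples were 0.96 to 1.00 (Spearman 0.88 to 0.99). Without E4 and E1, the samples farthest from the median of Foxj1, they were 0.91 to 0.99. Foxj1 left a gap between 7 samples at 9.78 or below and 5 at 11.85 or above. Within the lower 7 the correlations between parts were 0.63 to 0.95 (Spearman 0.39 to 0.93). Foxj1 itself had a correlation of 0.96 with the mean of the other 27 members. Within the lower 7 samples its correlation with the part means was 0.97 for tektins and 0.94 for rulers and linkers, but 0.75 for arms, 0.65 for the central apparatus and 0.58 for spokes. Rfx2 and the arms had a correlation of 0.73 over 12 samples and of -0.05 within the lower 7. These are descriptions with no test, over points that share arrays and dyes.

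The same held between the 2 mice of an array, where the dye differs but slide and diet group do not. C2 lay below C1 in 26 of 28 genes with a median difference of -1.39, and C4 lay above C3 in 26 of 28 with a median of 1.77. E2 lay below E1 in 27 of 28 genes with a median of -2.48, and E4 above E3 in all 28 with a median of 0.92. P2 lay above P1 in 24 of the 27 genes with both values (median 0.71), while P4 and P3 were nearly alike (median 0.03, 15 genes up and 13 down). The median over all genes tested was -0.01 to 0.02 on every array. On the first 5 arrays the means of all 7 parts had one sign. The central apparatus had the largest mean difference of the structural parts on the 4 control and early-life arrays, -1.70, 2.47, -3.21 and 1.32. The even replicate carries Cy5 on every array, and the sign of the median difference varied between arrays.

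**Figure D3:**
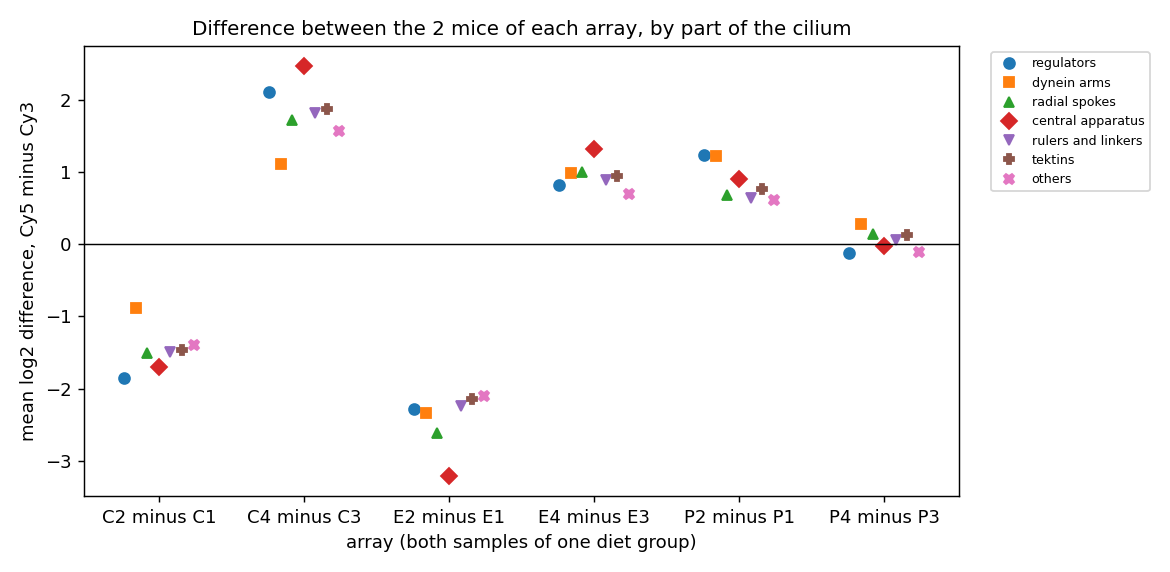
Mean log2 difference between the Cy5 and the Cy3 sample of each array (horizontal axis, both samples from one diet group) for each part of the cilium (symbols); the line marks 0. The 7 parts lie on one side of 0 on 5 arrays, between -3.21 and -2.11 for E2 against E1, and scatter around 0 for P4 against P3.

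Of the 28 genes, 22 had a correlation of 0.93 to 0.99 with the mean of the other members. The exceptions, named after their values were seen, were Dnah2 (0.16), Mlf1 (0.60), Rfx2 (0.75), Dnah5 (0.76), Spata18 (0.81) and Dnah9 (0.83). Dnah2, an inner arm heavy chain, measured 11.57, 12.29, 11.20 and 11.07 in control, 12.16, 11.66, 11.78 and 12.04 in early-life, and 10.49, 13.31, 11.18 and 12.19 in peripubertal samples. Its extremes were P1 and P2 of the same array, 2.82 log2 units apart. Mlf1, a gene first known from myeloid leukaemia and expressed in ciliated epithelia, measured 10.68, 10.45, 10.17 and 11.11 in control samples and 12.08, 12.12, 11.86 and 11.87 in early-life samples. It measured 11.1 and 10.77 in P3 and P4, and its P1 and P2 spots were left out as outliers. E2, low in the ciliary genes, held the highest Mlf1 value, and the early-life values overlapped neither other group. Spata18 ranged over 0.95 log2 units only. A second probe followed the first for Tekt1 (r = 1.00), Rsph1 (0.99) and Rsph4a (0.97), but not for Spata18 (0.35), whose probes gave early-life minus control differences of 0.33 and -0.11.

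**Figure D4:**
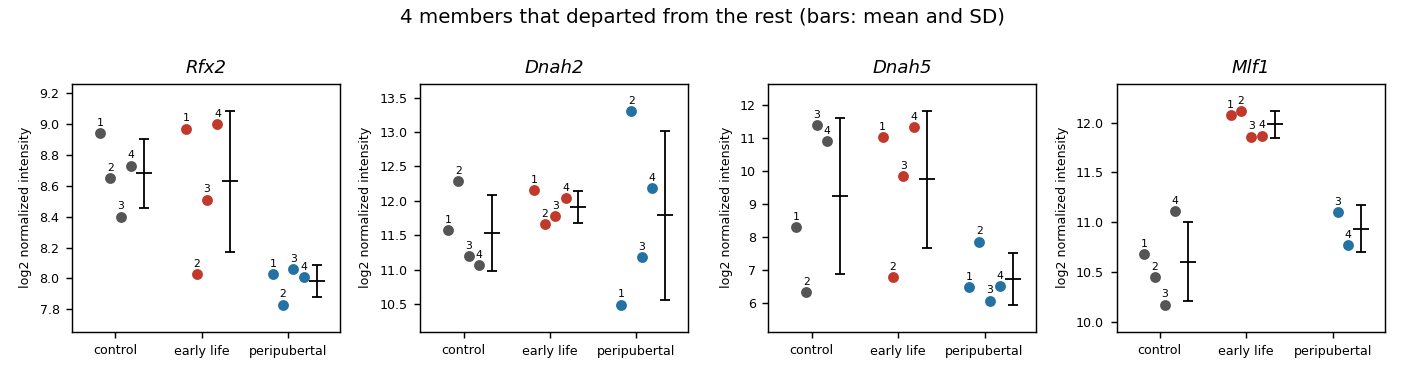
Log2 normalized intensity of Rfx2, Dnah2, Dnah5 and Mlf1 in each sample (points, with the replicate number) by diet group, with the mean and SD at the right of each group (n = 4, and n = 2 for Mlf1 in peripubertal samples). Rfx2 separates peripubertal from control samples, Dnah2 peaks in P2, Dnah5 is highest in C3, E4, E1 and C4, and the 4 early-life values of Mlf1 lie above all others.

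Early-life samples were set against control samples, where the diet differed only in early life. This comparison and the next share the control samples. As labelled, 27 of 28 genes were higher in early-life samples, with a median difference of 1.31 (2.48-fold) against -0.02 over all genes, and none passed an adjusted p of 0.05 in limma (0.0213% of all 18744 genes tested did). For Foxj1, early-life samples averaged 12.13 ± 1.76 and control samples 10.04 ± 2.12 (SD, n = 4 each), which gives a difference of 2.09 with a standard error of 1.53 (95% interval -1.32 to 5.51, limma adjusted p = 0.535). The smallest p belonged to Mlf1, with 11.98 ± 0.14 against 10.60 ± 0.40, a difference of 1.38 ± 0.25 (SE) and a limma adjusted p of 0.157. It was the only member whose groups did not overlap (4.87% of all genes were higher without overlap). Ccdc40 differed by 1.63 ± 0.76 (SE; limma adjusted p = 0.373). The group mean of Dnah9 was at least 1.43-fold higher (limma adjusted p = 0.313), with dimmer control values raised to the dimmest signal well above background. This bound allows for background only and not for the spread between samples (95% interval of the difference 0.08 to 1.1). Dnah9 passed the filter on dim probes only through the 4 early-life samples, so that it had to differ and is left out of the counts that follow. Of the remaining 27 members, 26 were higher (median 1.35), and 1 (Mlf1) had an unadjusted p under 0.05, against 13.9% of all genes. Rfx2 differed by -0.05, with a sign that turned in 5 alternatives that keep the group names. Part medians were 0.93 for arms, 1.01 for spokes, 1.5 for the central apparatus, 1.53 for rulers and linkers, and 1.38 for tektins. The median over the set was 0.83 without E1, 0.90 without E4, 0.93 without C2 or C3 and 1.92 without E2, with 0 members called in each case. Without the array block, Mlf1 was called (limma adjusted p = 0.0365), as were 0.528% of all genes.

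Peripubertal samples were then set against the same control samples. The differences ran the other way, with 25 of 28 genes lower and a median of -0.69 (1.62-fold) against 0.01 over all genes. Limma called 0 members (0.267% of all 18730 genes). Of the members counted as lower, Dnah9, Ccdc39 and Tekt2 were not well above background in any peripubertal sample, and Dnah9 in no control sample. Without these 3, 22 of 25 members were lower (median -0.7). Rfx2 had the smallest p, with 7.98 ± 0.11 (SD, n = 4) against 8.68 ± 0.22 (SD, n = 4), a difference of -0.70 ± 0.26 (SE; limma adjusted p = 0.344). It was the only member without overlap (5.56% of all genes were lower without overlap), and 1 member had an unadjusted p under 0.05, against 11.4% of all genes. Dnah5 differed by -2.50 ± 1.41 (SE; limma adjusted p = 0.541) and Foxj1 by -2.32 ± 1.53 (SE; limma adjusted p = 0.605). Dnah2, Mlf1 and Spata18 were the 3 members with a positive difference, 0.26, 0.33 and 0.02. The set median was -0.24 without C4 and -0.49 without C1, and -1.14 and -1.13 without C2 and C3, so it followed which of the high or low control pairs was kept. None of the 4 gave a call.

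Between the 2 deficiency groups the distance was widest. All 28 genes were higher in early-life than in peripubertal samples, with a median of 2.02 (4.06-fold) against -0.03 over all genes, and 0 were called by limma (2.42% of all 18878 genes were). Foxj1 differed by 4.41 ± 1.53 (SE; 95% interval 1.00 to 7.82, limma adjusted p = 0.133), with the early-life value higher in 15 of 16 pairs of samples. The smallest p belonged to Ccdc40, with 10.25 ± 1.15 (SD, n = 4) against 7.52 ± 0.35 (SD, n = 4), a difference of 2.72 ± 0.76 (SE; limma adjusted p = 0.0803). Mlf1 followed with 1.05 ± 0.31 (SE; limma adjusted p = 0.106), and the group mean of Dnah9 was at least 1.36-fold higher by the same bound (limma adjusted p = 0.114). Dnah9, Ccdc39 and Tekt2 were not well above background in any peripubertal sample, and these 3 are left out of the next counts. By that bound, which does not allow for the spread between samples, the group means of Ccdc39 and Tekt2 were at least 2.36-fold and 1.75-fold higher. Of the remaining 25 members, all higher with a median of 2.17, 14 had an unadjusted p under 0.05, against 23.6% of all genes. The groups did not overlap in 5 of the 25 (Dnah11, Rsph1, Ccdc40, Tekt4 and Mlf1), where 7.09% of all genes were higher without overlap. The count of calls depended on single libraries and on the model. Without E2, the early-life sample that is low in ciliary genes, 18 of 28 members passed, or 15 of the 25, while 8.16% of all genes did. Foxj1 then differed by 5.42 (limma adjusted p = 0.0487). Since E2 is low in most of these same genes, leaving it out had to widen their difference, and the added calls are no further support. Without C4, 1 member passed (Mlf1, limma adjusted p = 0.0455), while 2.68% of all genes did. Without the array block 9 members passed, while 11% of all genes did. The slide differs between these groups as well.

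Other ciliary genes were listed with earlier results of these data known. Of 60 further motile cilia genes, 51 were tested and 0 were called in any of the 3 comparisons (background shares as above). Their median differences were 0.88 for early life against control, -0.40 for peripubertal against control and 1.43 for early life against peripubertal samples. In 34 of the 51 the correlation with the mean of the members was at least 0.9. The widest ranges were those of Drc1 of the nexin-dynein regulatory complex (4.99 log2 units), Cfap52 (4.68) and Fam183b (4.68). Mcidas, Ccno and Trp73, which act before or beside Foxj1 in multiciliated cells, were singled out after their values were seen: their correlations with the members were -0.16, -0.09 and -0.03, over ranges of 1.13, 1.16 and 0.83 log2 units. Myb and Deup1, which also act early in such cells, had correlations of 0.99 and 0.95 over ranges of 3.78 and 1.46 log2 units. A low correlation was not particular to early-acting genes. It was under 0.9 in 17 of the 51, and the lowest values were those of Ccdc114 (-0.3) and Drc3 (-0.22). The intraflagellar transport genes, which build primary and motile cilia alike, had 0 of 20 tested called and medians of 0.19, 0.05 and 0.11. Ift88, Ift172 and Dync2h1 had the widest ranges among them, 1.41, 1.34 and 1.25 log2 units. The mean deviations of this list were small, -0.17 to 0.28. Their correlation with the members was 0.91 over 12 samples, 0.78 without E4 and E1 and 0.33 within the lower 7.

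Among 11092 other named genes with a value in every sample, those whose pattern was most like the mean of the members over 12 samples included Ak8, Nek5, Zmynd10, Ccdc151, Kcnrg, Lrrc43, Nme5, Ttll9 and Enkur, with correlations of 0.995 to 0.997. Of all genes compared, 4.36% had a correlation over 0.9.

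Markers of other cells moved with the set to different degrees. The oviduct secretory list had 10 of 12 genes tested, and its mean deviations were 0.39, -0.95, -1.14 and 0.66 in control, 2.21, -0.62, 1.34 and 2.51 in early-life, and -1.19, -0.95, -1.35 and -0.93 in peripubertal samples. The order of samples was close to that of the ciliary genes, with a correlation of 0.98 over 12 samples, 0.95 without E4 and E1 and 0.50 within the lower 7. Over the 8 genes with a value in every sample, which leave out Ovgp1, summed normalized intensity was 4290 to 12800 in control, 6340 to 58000 in early-life and 4200 to 5740 in peripubertal samples. Ovgp1, the oviduct-specific glycoprotein, had no value in C1 and C2, whose spots were outliers, and measured 9.57 and 16.14 in C3 and C4. It measured 17.83, 11.59, 15.45 and 17.54 in early-life and 9.07, 12, 8.56 and 9.16 in peripubertal samples, well above background in all 12. Wfdc2, a secreted epithelial protein, was the only gene of this list called in any comparison, higher in early-life than in peripubertal samples by 4.50 (limma adjusted p = 0.0483), and Pax8, a factor of the secretory cells, ranged over 4.41 log2 units. Of the 12 listed genes, 0 were at background in all samples. The part of these cells in the differences of the ciliary genes was not tested.

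**Figure D5:**
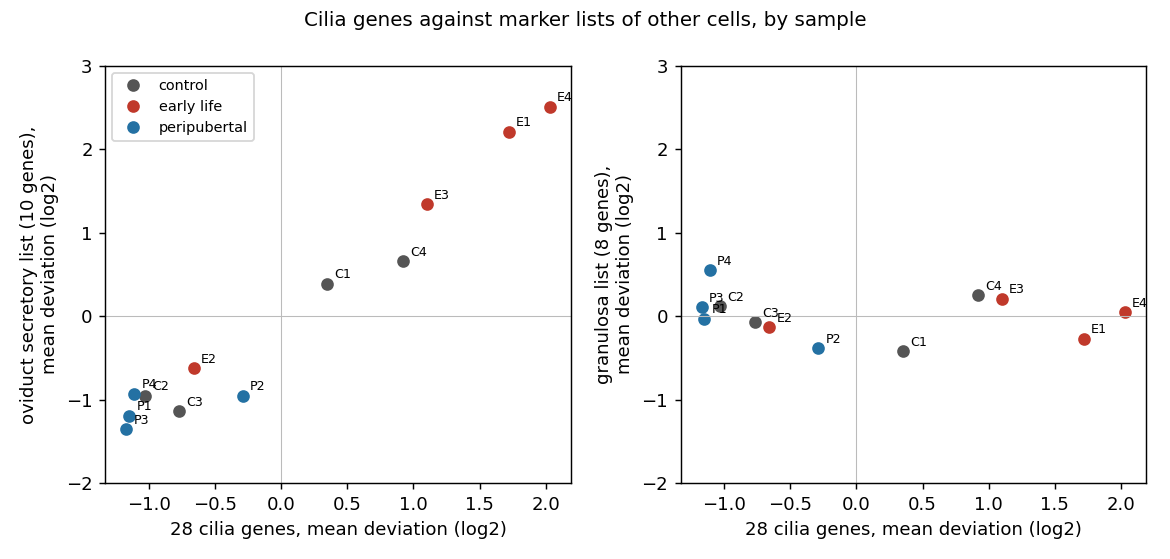
Mean deviation (log2) of the 28 ciliary genes in each sample (horizontal axis) against that of 10 oviduct secretory genes (left) and 8 granulosa genes (right), coloured by diet group. On the left the 5 samples with positive ciliary values also have positive secretory values, up to 2.51 in E4; on the right the granulosa values stay between -0.42 and 0.55.

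The ovarian surface epithelium list (10 genes, widest in Krt18, Krt19 and Lgr5 with 3.5, 3.39 and 2.75 log2 units) had a correlation of 0.81 with the members. It was 0.57 without E4 and E1 and -0.37 within the lower 7. By gene, the keratins Krt8, Krt18 and Krt19 had correlations of 0.93, 0.95 and 0.92, and the other 7 genes 0.02 (Upk1b) to 0.72 (Upk3b). The adipocyte list (7 of 8 tested, widest in Cfd, Fabp4 and Adipoq with 7.15, 6.48 and 5.77) had a correlation of 0.49 and medians of 2.14, 0.95 and 1.37 in the 3 comparisons. Its highest sample was E1 with a mean deviation of 2.59, and the summed intensity of the 5 genes with a value in every sample was 2950 to 11400 in control, 20000 to 147000 in early-life and 4380 to 35800 in peripubertal samples. The granulosa list (widest in Cyp19a1, Inhba and Nr5a2 with 3.89, 2.29 and 1.49), the theca and luteal list (Star, Ptgfr and Cyp17a1 with 4.63, 4.59 and 3.74) and the oocyte list (Bmp15, Oosp1 and Figla with 1.40, 1.34 and 1.21) had correlations of -0.18, -0.49 and -0.24. No gene of these 5 lists was called in any comparison. Of 10 listed genes of sperm, 5 were tested and 4 were at background in all samples. Prm1, a sperm protamine, was called in this list as lower in peripubertal than in control samples, by -0.99 (limma adjusted p = 0.045), and higher in early-life than in peripubertal samples, by 0.69 (limma adjusted p = 0.0484), and Odf2 and Ldhc ranged over 1.15 and 1.02 log2 units. The part of any of these cells was not tested.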

How the data were processed

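Agilent Feature Extraction 11.0.1.1 read the arrays, per the file headers, which place probes on build mm9. In the deposited scanner files, mean signal and local background are intensity values before normalization, and the processed intensity was corrected by that software. The deposited value table is on a log2 scale with column medians at 0; its making is not given in the sources used here. Deposited flags (0 or 1) mark spots as above background, saturated or outlying.

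Normexp (offset 50), loess and Aquantile were applied in limma 3.58.1 (R 4.3.3). Leaving out outlier spots removed 4.84% of values. The filter asked for signal well above background in 4 or more samples and kept 24664 probes, of which the brightest represented its gene. A single limma model took the 3 groups, the dye, and the array as random block (correlation 0.286). P-values were adjusted by Benjamini-Hochberg over all genes with a value in both groups. This is the planned filter; demanding 2 values per group was tried after counts had been seen and is an added alternative. The series states that the 4 females of a group are biological replicates.

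Members and lists were chosen with earlier results of these data known. Values in every sample are given for the regulators and, in each other part, the 2 tested members with the widest range. The 3 smallest p of each comparison are named, and the 3 widest ranges of each list. Of the 10 genes most like the members, 1 is not reported here. Dnah2, Spata18 and the list genes beyond these were singled out after their values were seen. Alternatives changed background correction, normalization, filter, probe choice, array block, dye term or outlier handling, blocked on the replicate number, or left out each sample.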

Additional observations from a re-analysis of the deposited data

Results flagged for a closer look

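In 13 of 107 tests of a group of 4 samples (12.1%), the highest or lowest sample stood apart from the other 3 by more than Dixon's 95% critical value. Chance gives about 5%, and the genes and part means tested share their samples. Values at background lie close together, which favours such a gap, so the share of 12.1% cannot be read against 5%. In 12 of the 13 the sample was P2, always the highest of the peripubertal samples.

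P2 measured 9.78 for Foxj1, where the other peripubertal samples lay between 6.92 and 7.1. It measured 9.05 for Dnali1 (others 7.06 to 7.29), 8.39 for Lrrc23 (7.06 to 7.2), 7.71 for Spag6 (6.58 to 6.73) and 7.24 for Spag16 (6.4 to 6.54). For the ruler genes it measured 8.05 for Ccdc40 (others 7.32 to 7.38) and 6.88 for Ccdc39 (6.6 to 6.63), the latter not well above background. Foxj1 was well above background in 2 peripubertal samples, Lrrc23 in 3, and Spag6 and Spag16 in 1 each. Dnali1 and Ccdc40 were so in all 4. As mean deviations, P2 stood at -0.4 for the regulators (others -1.73 to -1.62), -0.37 for the central apparatus (-1.28 to -1.25) and -0.41 for the tektins (-1.26 to -1.13). It stood at -0.29 for the other members (-0.94 to -0.84) and at -0.29 for all 28 genes (-1.17 to -1.11). The remaining case was Dnah9 in P1, at 6.55 against 6.73 to 6.74, all of them not well above background.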

How the results depend on the processing

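Depth limits the dimmest members: 12 of the 28 were well above background in all 12 samples. With 0 members called, the counts say little about stability. In the comparison of peripubertal with control samples, 0 members were called under every alternative run. Early life against control gave 1 call without the array block, where 0.528% of all genes were called. Early life against peripubertal gave 1 call with quantile normalization (Ccdc40, limma adjusted p = 0.0482), 1 without the dye term (Ccdc40, 0.0426), 9 without the array block, and 0 to 18 when 1 sample was left out. The shares of all genes called were, in the same order, 3.54%, 3.86%, 11% and 0.0106% to 8.16%.

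Median member differences had the same sign under all alternatives that keep the group names. With single samples left out they were 0.83 to 1.92 for early life against control, -1.14 to -0.24 for peripubertal against control and 1.5 to 2.77 for early life against peripubertal. Processed signals gave 3.16 for the last, and moved the median of all genes to -0.13, -0.09 and -0.04. With control and early-life arrays exchanged, an alternative chosen after seeing the data, the medians were -1.31, -2.02 and 0.69, with 457 and 50 genes called in the last 2 comparisons. The lowest correlation between parts was 0.94 to 0.98 with 1 sample left out.

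Genes called for early life against control (4) became 21 with processed signals, 1 with outlier spots kept, 13 with the mean of probes, 99 without the array block and 28 without the dye term. They were 0 without a filter on dim probes or with signal above background in all 12 samples, and 0 to 84 with 1 sample left out. For peripubertal against control (50) the count was 26 with outlier spots kept, 19 without a filter, 13 above background in all samples, 27 with the mean of probes, 154 without the array block, 80 without the dye term and 0 to 28 with 1 sample left out. For early life against peripubertal (457) it was 247 with processed signals, 2085 without the array block, 728 without the dye term and 2 to 1538 with 1 sample left out. Demanding 2 values per group, also added after seeing the data, gave 4, 50 and 489. Which genes these counts share was not compared, and the cause of the changes was not tested.

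With the replicate number as a block, 0, 14 and 624 genes and 0 members were called, and the member medians were 1.31, -0.69 and 2.02. Whether the numbers pair the samples is not settled. Deviations of 12 same-number pairs correlated at -0.28 to 0.57 (median 0.12), 6 of them over 0.1. Those of 36 different-number pairs correlated at -0.43 to 0.35 (median 0), 10 of them over 0.1. Of 12 samples, 8 correlated best with their own number, and samples of the same number also share the dye.

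Signs were followed gene by gene for 16 members, those given with values in every sample by rule or for their p, and turned in 3 of them with group names kept. For the rest only counts were kept: with 1 sample left out, 26 to 28 members were higher for early life against control, 1 to 4 for peripubertal against control and 27 to 28 for early life against peripubertal. Rfx2 for early life against control was 0.04 with processed signals and -0.23 to 0.17 with 1 sample left out, turning without C1 or C4 (0.02 each), E2 (0.17) or E3 (0.06). Dnah5 in that comparison was -0.29 to 1.55, turning without C2 (-0.29), E1 (-0.2) or E4 (-0.16). Hydin for peripubertal against control was -1.14 to 0.01, turning without C4.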

Other observations

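The 4 columns that the deposited value table names peripubertal matched no scanner channel closely and enter no comparison above. Over the members with a value, their medians were 0.39, -0.74, 0.05 and -0.87 on the authors' log2 scale, which is centred at 0 in each column. Foxj1 stood there at 0.54, -0.31, 1.24 and -0.75, and Tekt1 at 3.58, 3.06, 3.98 and 3.1.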
